A study of Arabidopsis thaliana with 8 samples.

Results

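The flavonoid and anthocyanin pathway of Arabidopsis was followed here as 39 genes chosen by locus identifier: 11 early enzymes from phenylalanine to the flavonols, 13 late genes for anthocyanin synthesis, decoration and transport, and 15 regulators. Of the 39, 37 were present in at least 1 of the 3 deposited tables and 34 in all 3, out of 23935 genes in all. The flavanone 3-hydroxylase gene F3H (AT3G51240) and the transporter gene TT12 (AT3G59030) have no expression values analysed here and enter only the promoter counts. BAN, MYB113 and MYB114 were present in the chr11/17 table only.

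RNA was sequenced from whole Col-0 seedlings, aged 10 days and raised on MS plates, the 16 h light period being kept at 23 °C and the 8 h dark period at 21 °C. There were 4 groups of 2 libraries. The arid5 group carried arid5(-/-), a mutation of the ISWI chromatin remodelling complex component named in the study's title. The group labelled chr11/17 carried chr11(-/-)chr17(-/-), the paired remodelling ATPases, and the group labelled rlt1/2 carried rlt1(-/-)rlt2(-/-), partners of those ATPases. Wild type (WT) had none of these mutations. The labels give neither the alleles nor the number of plants in a library, and do not say that libraries of a group came from separate cultures, so every p-value measures only the spread between these libraries.

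Depth was 23135817 to 29965298 reads per library in the 22636 genes shared by all tables. ARID5 itself had 229 and 221 scaled reads in arid5 and 892 and 904 in WT, and RLT2 had 84.4 and 59.6 in rlt1/2 and 2224 and 2093 in WT. RLT1, however, had 2238 and 1849 scaled reads in rlt1/2 and 1897 and 1909 in WT, and CHR11 had 7909 and 7962 in chr11/17 and 3311 and 3122 in WT. CHR17 had 844 and 907 in chr11/17 and 1501 and 1409 in WT. The levels of RLT1 and CHR11 go against a loss of transcript, so both groups are named here by what their labels say (labelled chr11/17, labelled rlt1/2), and their directions stand or fall with the labels. In whole seedlings, fewer cells of a type and less RNA per cell cannot be told apart. Markers of other tissues moved between the groups. The 4 trichome markers summed to 334 and 433 scaled reads in arid5, 120 and 147 in libraries labelled chr11/17, 358 and 328 in those labelled rlt1/2, and 624 and 570 in WT. In that order of mutants, 1, 4 and 3 of the 4 were called lower. That is 25%, 100% and 75%, against 24.6%, 36% and 24% of all genes, so the arid5 count was at the background. The 8 root markers summed to 6918 and 6300, 3181 and 3135, and 7296 and 7420 in the same order, against 4073 and 4329 in WT. PHT1.1 gave the largest part of each sum (1249 and 1158 in chr11/17, 2068 and 2388 in WT). By gene, 5 rose and 1 fell in arid5, 4 rose and 3 fell in chr11/17, and 6 rose and 1 fell in rlt1/2. Their median log2 changes were 0.75, 0.32 and 0.97. The shares called were 75%, 87.5% and 87.5%, against 47.9%, 71.8% and 47.9% of all genes. Of 8 seed markers 2 were in all tables, and they summed to 30 and 31, 299 and 86, and 37 and 42, against 9 and 2 in WT. In libraries labelled chr11/17 that sum was nearly all CRA1 (294.6 and 77.8), with SESA4 at 4.2 and 8.3. The part of these tissues in the results below was not tested.

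Flavonoids are built from phenylalanine: the general phenylpropanoid enzymes make coumaroyl-CoA, chalcone synthase and the other early enzymes turn it into dihydroflavonols, and from there flavonol synthase leads to flavonols while DFR and LDOX lead to anthocyanidins, which sugar and acyl transferases decorate before transport to the vacuole. In Arabidopsis the early genes are known targets of the flavonol MYB factors MYB11, MYB12 and MYB111, and the late genes of a complex of an R2R3 MYB such as PAP1, a bHLH such as TT8 and the WD40 protein TTG1. MYBL2 and the LBD37 to LBD39 proteins are known repressors of anthocyanin synthesis.

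The regions upstream of 6 of these genes are shown because the genes span the early, late and regulatory steps and take different paths across the mutants. Each is the 300 bases before the annotated start in RefSeq's TAIR10.1, 5′ to 3′ on the gene's strand, with matches to CACGTG (the G-box, which bHLH and bZIP proteins can bind) and to ACCNACC (the AC element, a MYB motif) in capitals. Both strands were searched. CACGTG reads the same on both, an ACCNACC match on the other strand appears as GGTNGGT, and no printed matches overlap.
DFR (chr5:17166033-17166332, minus strand): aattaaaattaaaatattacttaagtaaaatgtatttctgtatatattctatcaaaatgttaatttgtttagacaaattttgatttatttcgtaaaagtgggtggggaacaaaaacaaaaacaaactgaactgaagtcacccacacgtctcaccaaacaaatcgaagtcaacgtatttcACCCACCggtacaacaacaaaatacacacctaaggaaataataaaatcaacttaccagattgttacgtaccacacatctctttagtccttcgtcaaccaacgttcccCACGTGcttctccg
UGT79B1 (chr5:21938397-21938696, minus strand): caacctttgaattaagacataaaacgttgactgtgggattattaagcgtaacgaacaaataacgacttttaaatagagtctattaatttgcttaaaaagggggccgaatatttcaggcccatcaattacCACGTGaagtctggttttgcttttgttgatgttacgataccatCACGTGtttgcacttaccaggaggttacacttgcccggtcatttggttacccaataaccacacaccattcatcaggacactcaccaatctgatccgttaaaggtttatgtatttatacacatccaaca
CHS (chr5:4488176-4488475, plus strand): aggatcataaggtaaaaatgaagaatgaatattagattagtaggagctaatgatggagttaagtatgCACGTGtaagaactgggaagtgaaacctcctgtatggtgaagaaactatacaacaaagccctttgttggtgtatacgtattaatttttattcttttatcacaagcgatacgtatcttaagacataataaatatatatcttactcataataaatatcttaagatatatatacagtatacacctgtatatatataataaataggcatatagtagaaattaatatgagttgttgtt
CHIL (chr5:1562986-1563285, plus strand): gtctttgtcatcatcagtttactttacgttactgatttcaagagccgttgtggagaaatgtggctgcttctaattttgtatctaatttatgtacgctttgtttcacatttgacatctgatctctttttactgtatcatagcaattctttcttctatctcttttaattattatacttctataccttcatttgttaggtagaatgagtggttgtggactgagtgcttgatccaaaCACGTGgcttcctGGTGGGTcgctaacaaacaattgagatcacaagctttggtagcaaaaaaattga
TT8 (chr4:6181581-6181880, plus strand): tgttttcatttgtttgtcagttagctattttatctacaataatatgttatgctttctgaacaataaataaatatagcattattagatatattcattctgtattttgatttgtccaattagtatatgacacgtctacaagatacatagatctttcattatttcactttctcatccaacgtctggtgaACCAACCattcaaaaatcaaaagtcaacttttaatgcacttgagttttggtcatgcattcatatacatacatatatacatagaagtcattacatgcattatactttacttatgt
PAP1 (chr1:21235293-21235592, minus strand): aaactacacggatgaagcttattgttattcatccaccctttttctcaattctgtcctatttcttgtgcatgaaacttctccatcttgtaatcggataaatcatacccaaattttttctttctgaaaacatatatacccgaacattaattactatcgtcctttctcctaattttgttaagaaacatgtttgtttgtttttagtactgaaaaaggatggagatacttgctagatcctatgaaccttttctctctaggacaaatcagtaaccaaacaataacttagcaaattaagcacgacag
The DFR and CHIL windows each held 1 G-box and 1 AC element, UGT79B1 held 2 G-boxes, CHS held 1 G-box, TT8 held 1 AC element and PAP1 held neither. Across the 39 genes, 14 windows (35.9%) held at least 1 of the motifs, against 13.5% of the windows of all 27443 protein-coding genes. CACGTG was present in 10 (25.6%, against 7.09%) and ACCNACC in 8 (20.5%, against 7.08%). By step, 4 of 11 early, 6 of 13 late and 4 of 15 regulator windows held a match. A match is a description of the letters only. LDOX and GSTF12 held neither motif in this window. Windows were not cut at neighbouring genes. Those of F3H, UGT75C1, SCPL10 and GSTF12, among others, contain exons of other genes, and all of these but GSTF12 are among the windows with a match.

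The anthocyanin genes DFR, LDOX, UGT79B1, UGT75C1, 5MAT and GSTF12 rose in all 3 mutants. DFR, the first enzyme committed to anthocyanins, was 2.70-fold higher in arid5, 14.7-fold higher in libraries labelled chr11/17 and 3.31-fold higher in those labelled rlt1/2, each against WT, as ratios of mean scaled reads. PAP1, the MYB activator of anthocyanin synthesis, was 46.9-fold higher in libraries labelled chr11/17, while MYBL2, a repressor, was 9.87-fold lower there. The median change of the early enzymes was smaller in each mutant, and neither flavonol branch gene was called higher with the deposited scaling. Several members went down in arid5 and in libraries labelled rlt1/2 but not in those labelled chr11/17.

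In arid5, 32 of the 39 members could be tested, and 15 were called higher, 6 lower and 11 neither, at an adjusted p under 0.05 with limma on log2(value + 10). That is 65.6% of those tested, against 47.9% of all 20550 genes tested; 46.9% were higher, against 23.3%, and 18.8% lower, against 24.6%. In libraries labelled chr11/17, 21 of 33 were higher and 6 lower, 81.8% in all, against a background of 71.8% called; 63.6% were higher, against 35.9%, and 18.2% lower, against 36%. In those labelled rlt1/2, 17 of 32 were higher and 7 lower, 75% in all, against 47.9%; 53.1% were higher, against 23.8%, and 21.9% lower, against 24%. The share called in either direction in libraries labelled chr11/17 lay near the background. PAP2 is 1 of its 21, and it passed the filter on low values only through the group in which it was high. The median log2 change of the tested members was 0.24, 0.87 and 0.30 in arid5, chr11/17 and rlt1/2, and that of all genes 0.003, -0.007 and 0.009. The 3 comparisons share the WT libraries, so they are set side by side and their likeness is not a result. When the libraries were instead given equal totals, the all-gene median became 0.253, 0.147 and 0.269, with 20 members higher and 4 lower in arid5, 23 and 4 in chr11/17 and 20 and 3 in rlt1/2. Of all genes, 9767 of 20569 were then higher and 2674 lower in arid5. They were 8867 of 20903 and 6274 in chr11/17, and 9681 of 20726 and 2695 in rlt1/2. With the deposited scaling 4784, 7485 and 4944 of all genes were higher. The members called higher with equal totals and not with the deposited scaling were PAL1 (0.36), PAL2 (0.29), FLS1 (0.22), 3AT1 (0.43) and BGLU10 (0.35) in arid5, SCPL10 (0.41) and UGT78D2 (0.31) in chr11/17, and PAL2 (0.26), 3AT2 (0.54) and EGL3 (0.56) in rlt1/2, to be read against those medians.

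By step, the late genes carried the larger median changes. Of 11 late genes tested, 6 rose and 2 fell in arid5 with a median of 0.70, 9 rose and 0 fell in libraries labelled chr11/17 with a median of 1.72, and 7 rose and 2 fell in those labelled rlt1/2 with a median of 0.97. Of 10 early genes, 4 rose and 1 fell in arid5, 6 rose and 2 fell in chr11/17, and 5 rose and 2 fell in rlt1/2, with medians of 0.06, 0.99 and 0.09. Of the regulators, 5 of 11 rose and 3 fell in arid5, 6 of 12 rose and 4 fell in chr11/17, and 5 of 11 rose and 3 fell in rlt1/2, with medians of 0.26, 0.42 and 0.30. These counts hold activators and repressors together. No test was made between the steps. The shares called in arid5, chr11/17 and rlt1/2 were 72.7%, 81.8% and 81.8% of the late genes. They were 50%, 80% and 70% of the early genes, and 72.7%, 83.3% and 72.7% of the regulators. Of all genes, 47.9%, 71.8% and 47.9% were called, so the early share in arid5 and the chr11/17 shares lay near the background.

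**Figure D1:**
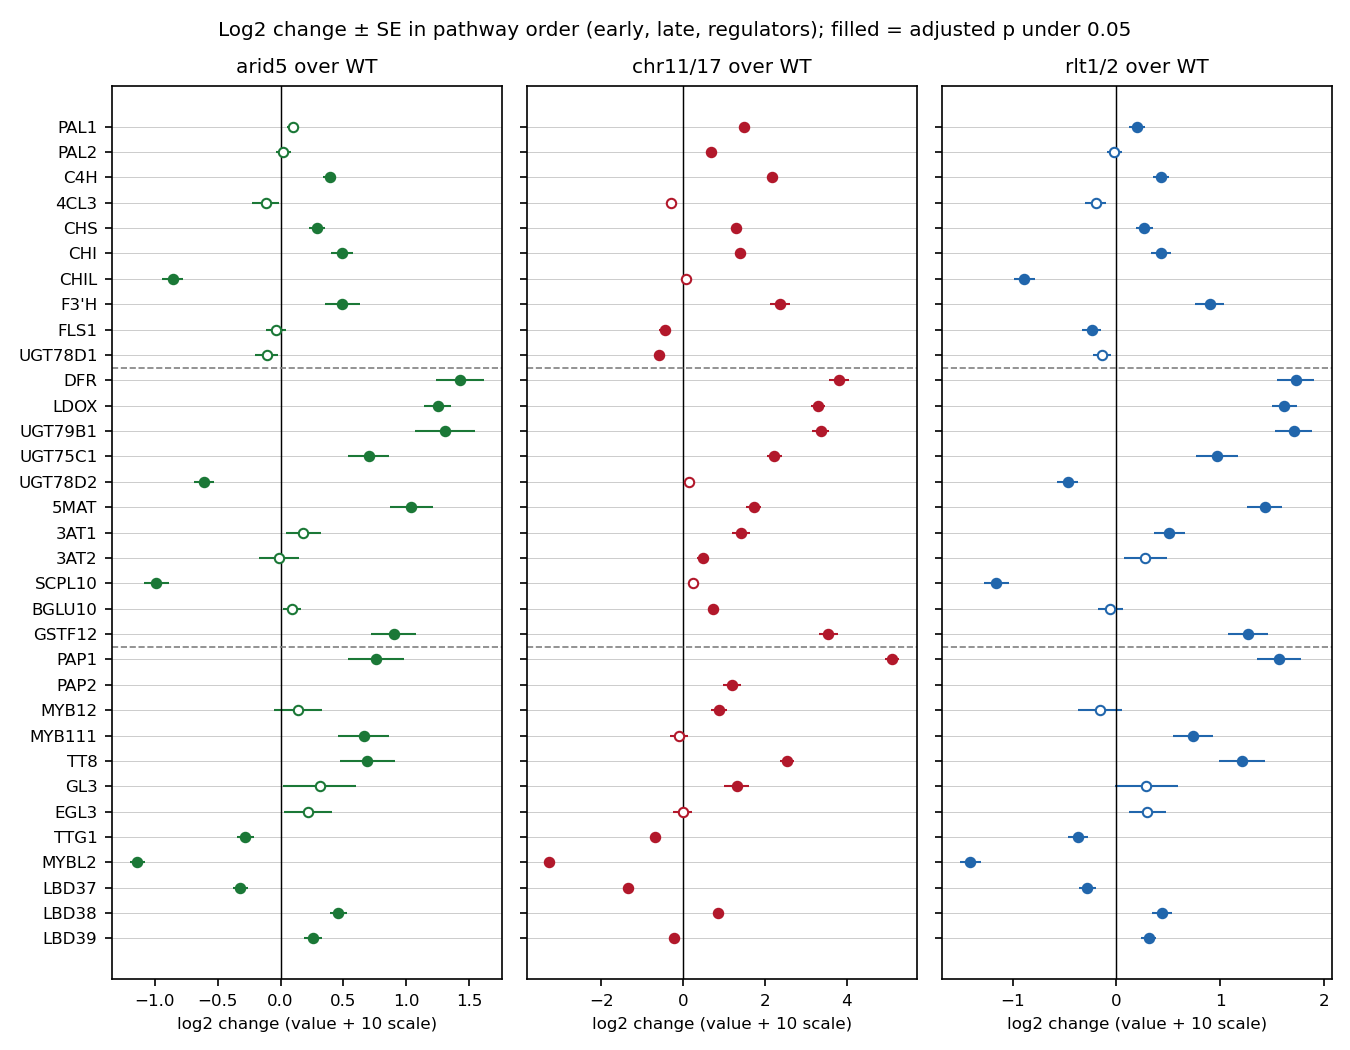
Log2 change of each tested member over WT (x axis, log2(value + 10) scale, a different range in each panel) with its standard error, in arid5, in libraries labelled chr11/17 and in libraries labelled rlt1/2, n = 2 libraries per group. Members run down the page from early enzymes through late genes to regulators, separated by dashed lines, and filled points have an adjusted p under 0.05; the late genes DFR, LDOX and UGT79B1 lie far to the right and the repressor MYBL2 far to the left in every panel.

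Among the activators, PAP1 (AT1G56650, chr1:21233555-21235292) had 63.4 and 55.4 scaled reads in arid5, 1592 and 1311 in libraries labelled chr11/17, 108 and 111 in those labelled rlt1/2, and 36.2 and 25.6 in WT. Scaled reads are recovered whole reads brought to 1 common library size. All 6 mutant libraries lay above both WT libraries, and the chr11/17 libraries lay above all others. The log2 changes over WT were 0.76 ± 0.22 in arid5, 5.11 ± 0.17 in chr11/17 and 1.57 ± 0.21 in rlt1/2 (standard error, n = 2 libraries per group here and below), with limma adjusted p = 0.0139, 1.4e-06 and 5.65e-05. The arid5 call did not survive the removal of arid5 replicate 1 (0.68, adjusted p = 0.0889) or of WT replicate 2 (0.58, adjusted p = 0.0921), nor DESeq2 (adjusted p = 0.107), and over its 10 alternatives the adjusted p ran from 0.00327 to 0.107. The other anthocyanin MYB genes stand together on chromosome 1 and were nearly silent. PAP2 (AT1G66390) had 6 and 6 reads in arid5, 20 and 17 in libraries labelled chr11/17, 10 and 10 in those labelled rlt1/2, and 1 and 3 in WT, and passed the filter on low values through the chr11/17 libraries alone. Its fitted log2 change there, 1.20 ± 0.22 with a pseudocount of 10, ran from 1.08 to 3.10 over the alternatives, so no size is drawn from it. MYB113 had 10 and 7 reads in libraries labelled chr11/17 and 0 and 0 in WT, and MYB114 had 3 and 5 against 0 and 0. Neither passed the filter.

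TT8 (AT4G09820), the bHLH partner of PAP1, had 44.7 and 41.3 scaled reads in arid5, 203 and 170.1 in libraries labelled chr11/17, 73.7 and 57.2 in those labelled rlt1/2, and 22.6 and 22.3 in WT. No mutant library overlapped WT. TT8 changed by 0.69 ± 0.22, 2.54 ± 0.18 and 1.21 ± 0.22 in arid5, chr11/17 and rlt1/2 (adjusted p = 0.0214, 2.1e-05 and 0.000761). The arid5 call was lost without any one of its 4 libraries (0.65 to 0.74, adjusted p = 0.0685 to 0.123) and with DESeq2 (adjusted p = 0.178). GL3 (AT5G41315), a bHLH factor of trichomes and anthocyanins, had 39.5 and 28.2 scaled reads in arid5, 73.4 and 84 in libraries labelled chr11/17, 26.6 and 39.2 in those labelled rlt1/2, and 37.4 and 15.6 in WT. Only the chr11/17 libraries stood clear of WT (1.31 ± 0.30, adjusted p = 0.00593), and GL3 was not called in arid5 (0.31 ± 0.29) or rlt1/2 (0.29 ± 0.30). Its relative EGL3 (AT1G63650) had 143 and 169 scaled reads in arid5, 116 and 151 in chr11/17, 164 and 165 in rlt1/2, and 163 and 106 in WT, and was not called in any of the 3 comparisons (without WT replicate 1, 0.58 and adjusted p = 0.0236 in rlt1/2). TTG1 (AT5G24520), the WD40 subunit, had 832 and 824 scaled reads in arid5, 640 and 622 in libraries labelled chr11/17, 850.0 and 703 in those labelled rlt1/2, and 973 and 1037 in WT. It fell in all 3 mutants, with log2 changes of -0.28 ± 0.07, -0.69 ± 0.08 and -0.37 ± 0.10 (adjusted p = 0.00689, 0.000209 and 0.00775), with no overlap with WT. With equal library totals it was not called in arid5 (-0.02) or rlt1/2 (-0.10), and the arid5 call was also lost without WT replicate 2 (-0.23, adjusted p = 0.0702). GL3 and TTG1 also act in trichomes. The summed trichome markers were lower than WT in every mutant library, as TTG1 was, while GL3 was higher in the libraries labelled chr11/17.

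The flavonol MYB genes took separate paths. MYB12 (AT2G47460) had 67.6 and 78.5 scaled reads in arid5, 110.1 and 154 in libraries labelled chr11/17, 48.9 and 65.9 in those labelled rlt1/2, and 67.9 and 62.4 in WT, and rose in chr11/17 alone (0.87 ± 0.20, adjusted p = 0.0066). MYB111 (AT5G49330) had 75.9 and 96.7 in arid5, 39.8 and 56 in libraries labelled chr11/17, 97.7 and 83.9 in those labelled rlt1/2, and 53.2 and 47.9 in WT. The chr11/17 libraries straddled WT and the other mutant libraries lay above it. MYB111 rose in arid5 (0.66 ± 0.20, adjusted p = 0.0167) and in rlt1/2 (0.74 ± 0.19, adjusted p = 0.00719), and its change in chr11/17 was -0.10 ± 0.21 (adjusted p = 0.704). DESeq2 did not call it in arid5 (adjusted p = 0.104) or rlt1/2 (adjusted p = 0.052), and its arid5 value missed the threshold without arid5 replicate 2 (0.50, adjusted p = 0.136) and also without WT replicate 2 (0.60, adjusted p = 0.0665). MYB11 had 6 reads or fewer in every library and was not tested.

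Of the repressors, MYBL2 (AT1G71030, chr1:26795052-26796532), an R3 MYB that competes with the activators for the bHLH proteins, had 1081 and 1023 scaled reads in arid5, 213 and 260.3 in libraries labelled chr11/17, 964 and 781 in those labelled rlt1/2, and 2275 and 2393 in WT. The groups did not overlap WT, and the chr11/17 libraries were lowest. MYBL2 fell in each mutant, with log2 changes of -1.14 ± 0.06, -3.27 ± 0.11 and -1.41 ± 0.10 (adjusted p = 1.78e-07, 1.45e-06 and 4.24e-07), calls kept under every alternative run. LBD37 (AT5G67420), a nitrate-responsive repressor of PAP1 and PAP2, had 3490 and 3897 scaled reads in arid5, 1699 and 1932 in libraries labelled chr11/17, 3999 and 3568 in those labelled rlt1/2, and 4580 and 4626 in WT. LBD37 fell in each mutant, with log2 changes of -0.32 ± 0.06, -1.36 ± 0.08 and -0.28 ± 0.08 (adjusted p = 0.00132, 1.13e-05 and 0.0106). With equal library totals it was not called in arid5 (-0.06) or rlt1/2 (-0.01), and in rlt1/2 the call went when either WT library was left out (-0.29 and adjusted p = 0.0796 without replicate 1, -0.27 and 0.0979 without replicate 2). Its relative LBD38 (AT3G49940) went the other way, with 2056 and 1898 scaled reads in arid5, 2710.1 and 2579 in chr11/17, 1745 and 2172 in rlt1/2, and 1344 and 1531 in WT. LBD38 rose by 0.46 ± 0.07, 0.85 ± 0.08 and 0.44 ± 0.10 (adjusted p = 0.000346, 9.6e-05 and 0.00341). LBD39 (AT4G37540) had 1653 and 1468 scaled reads in arid5, 1061 and 1201 in libraries labelled chr11/17, 1542 and 1665 in those labelled rlt1/2, and 1285 and 1307 in WT. It rose in arid5 (0.26 ± 0.07, adjusted p = 0.00841) and rlt1/2 (0.31 ± 0.07, adjusted p = 0.00444) and was lower in chr11/17 (-0.22 ± 0.08, adjusted p = 0.0489). That chr11/17 call was lost in 7 of its 10 alternatives, among them each library left out other than chr11/17 replicate 2 (-0.13 to -0.24, adjusted p = 0.142 to 0.193), and the arid5 call was lost without arid5 replicate 1 (0.18, adjusted p = 0.0734).

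**Figure D2:**
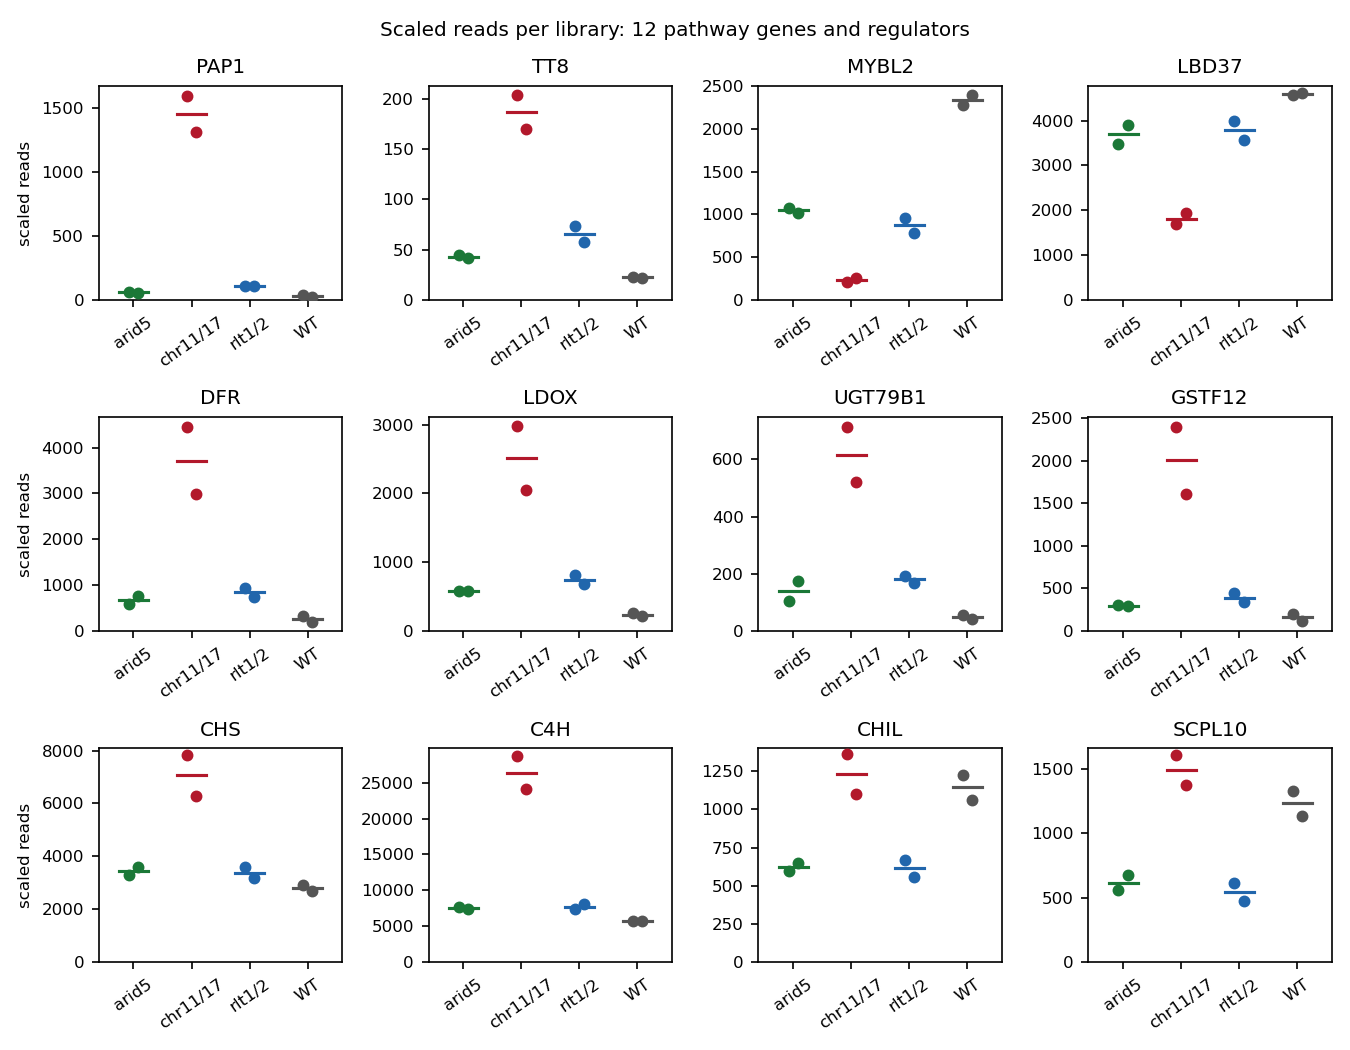
Scaled reads (y axis, linear from 0, a different range in each panel) of 12 members in the 2 libraries each of arid5, chr11/17, rlt1/2 and WT, the mutant names being those on the labels. Points are libraries and short lines are group means; PAP1, TT8, DFR, LDOX, UGT79B1 and GSTF12 are highest in the chr11/17 libraries and above WT in every mutant library, MYBL2 and LBD37 are lowest in the chr11/17 libraries, and CHIL and SCPL10 are lower in arid5 and rlt1/2 only.

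The enzymes that make anthocyanidins rose in every mutant. DFR (AT5G42800, chr5:17164093-17166032), dihydroflavonol reductase, had 598 and 774 scaled reads in arid5, 4455 and 2980 in libraries labelled chr11/17, 934 and 747 in those labelled rlt1/2, and 317 and 191 in WT. Both libraries of each mutant lay above both WT libraries. DFR rose by 1.43 ± 0.19, 3.81 ± 0.25 and 1.73 ± 0.18 (adjusted p = 7.69e-05, 1.63e-05 and 1.1e-05). LDOX (AT4G22880), leucoanthocyanidin dioxygenase, had 577 and 581 scaled reads in arid5, 2974 and 2054 in chr11/17, 807 and 688 in rlt1/2, and 257 and 218 in WT. It rose by 1.25 ± 0.11, 3.30 ± 0.17 and 1.62 ± 0.12 (adjusted p = 2.72e-06, 6.21e-06 and 7.34e-07), again with no overlap with WT. GSTF12 (AT5G17220), the glutathione transferase TT19 needed for anthocyanin transport, had 300.5 and 297 scaled reads in arid5, 2399 and 1613 in chr11/17, 441 and 339 in rlt1/2, and 197 and 121 in WT. GSTF12 rose by 0.90 ± 0.18, 3.55 ± 0.24 and 1.27 ± 0.19 (adjusted p = 0.00166, 1.92e-05 and 0.000186). BAN (AT1G61720), which diverts anthocyanidins to seed coat proanthocyanidins, had 6 and 4 reads in libraries labelled chr11/17 and 0 and 1 in WT, and did not pass the filter. Of the 2 summed seed markers, CRA1 was highest in the same libraries (294.6 and 77.8 scaled reads). SESA4 was highest in those labelled rlt1/2 (10.7 and 13.3, against 4.2 and 8.3 in chr11/17). Outside that sum, SESA1 had 87 and 84 reads in chr11/17, 4 and 9 in rlt1/2, and 0 and 2 in WT. CRC had 108 and 29 reads in chr11/17 and 0 and 0 in WT.

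Of the 8 decoration genes, 3 rose and 2 fell in arid5, 6 rose and 0 fell in libraries labelled chr11/17, and 4 rose and 2 fell in those labelled rlt1/2. That is 62.5%, 75% and 75% called, against 47.9%, 71.8% and 47.9% of all genes, so the chr11/17 share lay near the background. The shares higher were 37.5%, 75% and 50%, against 23.3%, 35.9% and 23.8%. UGT79B1 (AT5G54060), the anthocyanin xylosyltransferase, had 104 and 176 scaled reads in arid5, 715 and 520 in chr11/17, 194 and 169 in rlt1/2, and 55.5 and 42.3 in WT. It rose by 1.31 ± 0.24, 3.36 ± 0.20 and 1.71 ± 0.18 (adjusted p = 0.000832, 9.73e-06 and 1.26e-05). UGT75C1 (AT4G14090), the anthocyanin 5-O-glucosyltransferase, had 200 and 243 scaled reads in arid5, 787 and 565 in chr11/17, 331 and 216 in rlt1/2, and 151 and 115 in WT, and rose by 0.70 ± 0.16, 2.23 ± 0.19 and 0.97 ± 0.20 (adjusted p = 0.00439, 4.91e-05 and 0.00145). For both genes every mutant library lay above WT. 5MAT (AT3G29590), the anthocyanin malonyltransferase, had 124 and 142 scaled reads in arid5, 259 and 192 in chr11/17, 192 and 159 in rlt1/2, and 61.1 and 56.8 in WT. 5MAT rose by 1.04 ± 0.17, 1.72 ± 0.19 and 1.43 ± 0.17 (adjusted p = 0.000457, 0.000155 and 3.33e-05). Its levels in libraries labelled chr11/17 and rlt1/2 lay closer together than those of the other genes named in this paragraph.

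The coumaroyltransferase genes 3AT1 (AT1G03940) and 3AT2 (AT1G03495) have 39.9% and 40.8% of their exon 50-base words at another place in the genome, so the value of each copy is uncertain. 3AT1 had 182 and 212 scaled reads in arid5, 629 and 374 in chr11/17, 283 and 219 in rlt1/2, and 172 and 173 in WT. It rose in chr11/17 (1.41 ± 0.22, adjusted p = 0.00107) and rlt1/2 (0.51 ± 0.15, adjusted p = 0.0146; 0.32 and 0.127 without rlt1/2 replicate 1) and was not called in arid5 (0.18 ± 0.14). 3AT2 was called in chr11/17 only (0.49 ± 0.15, adjusted p = 0.0218), and missed the threshold without chr11/17 replicate 1 (0.39, adjusted p = 0.0611), without WT replicate 1 (0.36, adjusted p = 0.134) and in DESeq2 (adjusted p = 0.0528). BGLU10, an acyl-glucose-dependent glucosyltransferase gene with 14.2% of its words found elsewhere, rose in chr11/17 (0.74 ± 0.09, adjusted p = 0.000328). In rlt1/2, 3AT2 (0.28 ± 0.21) and BGLU10 (-0.06 ± 0.12) were not called, though each was when 1 library was left out: 3AT2 at 0.66 (adjusted p = 0.00254) without rlt1/2 replicate 2, and BGLU10 at -0.28 (adjusted p = 0.00928) without rlt1/2 replicate 1.

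SCPL10, UGT78D2 and CHIL fell in arid5 and in libraries labelled rlt1/2, while the other late genes there rose or were not called. SCPL10 (AT2G23000), the sinapoyltransferase of anthocyanins, had 555 and 672 scaled reads in arid5, 1604 and 1370.1 in chr11/17, 616 and 475 in rlt1/2, and 1329 and 1131 in WT. The arid5 and rlt1/2 libraries lay below all others. SCPL10 fell by 0.99 ± 0.10 in arid5 and by 1.16 ± 0.12 in rlt1/2 (adjusted p = 1.03e-05 and 9.55e-06), and its change in chr11/17 was 0.25 ± 0.11 (adjusted p = 0.0726; 0.36 and 0.00323 without chr11/17 replicate 2, 0.36 and 0.043 without WT replicate 1, 0.41 and 0.00927 with equal library totals). CHIL (AT5G05270), which helps chalcone synthase keep to its product, and UGT78D2 (AT5G17050), a glucosyltransferase of both flavonols and anthocyanidins, are given per library although neither reached a log2 change of 1, a choice made after their values were seen. CHIL had 598 and 647 scaled reads in arid5, 1362 and 1098 in chr11/17, 669 and 557 in rlt1/2, and 1225 and 1063 in WT. It fell in arid5 (-0.86 ± 0.08, adjusted p = 7.17e-06) and rlt1/2 (-0.89 ± 0.10, adjusted p = 2.39e-05), and the chr11/17 libraries overlapped WT (0.08 ± 0.12, adjusted p = 0.584; 0.23 and 0.0382 without chr11/17 replicate 2). UGT78D2 had 615 and 691 scaled reads in arid5, 1183 and 1065 in chr11/17, 786 and 655 in rlt1/2, and 1013 and 980.4 in WT. It fell by 0.61 ± 0.08 in arid5 (adjusted p = 7.05e-05) and by 0.47 ± 0.10 in rlt1/2 (adjusted p = 0.0016; -0.19 and 0.0823 with equal library totals), and was not called in chr11/17 (0.15 ± 0.08; 0.22 and 0.0291 without chr11/17 replicate 2).

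The general phenylpropanoid genes rose mainly in libraries labelled chr11/17. C4H (AT2G30490), cinnamate 4-hydroxylase, had 7618 and 7402 scaled reads in arid5, 28704 and 24156 in chr11/17, 7374 and 8032 in rlt1/2, and 5743 and 5721 in WT, and rose by 0.39 ± 0.05, 2.17 ± 0.11 and 0.43 ± 0.08 (adjusted p = 9.46e-05, 4.96e-06 and 0.000758). PAL1 (AT2G37040), phenylalanine ammonia-lyase, had 6125 and 6019 scaled reads in arid5, 16892 and 15525 in chr11/17, 6267 and 6703 in rlt1/2, and 5774 and 5544 in WT. It rose by 1.49 ± 0.08 in chr11/17 (adjusted p = 8.76e-06) and was not called in arid5 (0.10 ± 0.05). Its rlt1/2 value sat at the threshold (0.20 ± 0.08, adjusted p = 0.0496), and that call was lost in 7 of 10 alternatives, among them without WT replicate 1 (0.23), WT replicate 2 (0.17) or rlt1/2 replicate 2 (0.15), with adjusted p between 0.00022 and 0.392 over all 10. PAL2 rose in chr11/17 (0.69 ± 0.07, adjusted p = 0.000143) and was not called in the others with the deposited scaling.

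Chalcone synthase CHS (AT5G13930, chr5:4488476-4490264), the entry to flavonoids, had 3288 and 3584 scaled reads in arid5, 7840 and 6286 in chr11/17, 3585 and 3173 in rlt1/2, and 2914 and 2701 in WT. It rose by 0.29 ± 0.06, 1.30 ± 0.11 and 0.27 ± 0.08 (adjusted p = 0.00267, 4.8e-05 and 0.0159), and the rlt1/2 call was lost without WT replicate 2 (0.22, adjusted p = 0.186). CHI (AT3G55120), chalcone isomerase, had 650 and 680 scaled reads in arid5, 1377 and 1188 in chr11/17, 652 and 621 in rlt1/2, and 507 and 438 in WT. CHI rose by 0.49 ± 0.09, 1.40 ± 0.11 and 0.43 ± 0.10 (adjusted p = 0.00108, 3.03e-05 and 0.00348). F3'H (AT5G07990), flavonoid 3'-hydroxylase, had 202 and 204 scaled reads in arid5, 1060 and 583 in chr11/17, 292 and 255 in rlt1/2, and 137 and 147 in WT, and rose by 0.49 ± 0.14, 2.36 ± 0.25 and 0.90 ± 0.14 (adjusted p = 0.0122, 0.000144 and 0.000205). In arid5 it missed the threshold in DESeq2 (adjusted p = 0.0798) and when WT replicate 1 was left out (0.44, adjusted p = 0.0596). 4CL3 (AT1G65060), a 4-coumarate CoA ligase, was not called in any mutant, with changes of -0.12, -0.29 and -0.20; without chr11/17 replicate 2 it was -0.40 in chr11/17 (adjusted p = 0.0112).

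The flavonol branch did not follow the anthocyanin branch. FLS1 (AT5G08640), flavonol synthase, was lower in chr11/17 (-0.45 ± 0.15, adjusted p = 0.0288) and rlt1/2 (-0.24 ± 0.09, adjusted p = 0.045) and not called in arid5 (-0.04 ± 0.08). Its chr11/17 call was lost without either WT library (-0.44 and -0.46), without chr11/17 replicate 1 (-0.22) and with equal library totals (-0.29), and was -0.68 without chr11/17 replicate 2. With equal library totals FLS1 was 0.22 in arid5 (adjusted p = 0.0382) and 0.03 in rlt1/2 (adjusted p = 0.771), both below the all-gene medians of 0.253 and 0.269 under that scaling. Its rlt1/2 call was lost in 5 of 10 alternatives, among them without WT replicate 1 (-0.23), WT replicate 2 (-0.25) or rlt1/2 replicate 2 (-0.17). UGT78D1 (AT1G30530), the flavonol rhamnosyltransferase, fell by 0.60 ± 0.12 in chr11/17 (adjusted p = 0.00322) and was not called in arid5 (-0.11; -0.25 and 0.013 without arid5 replicate 2) or rlt1/2 (-0.14; -0.26 and 0.00845 without rlt1/2 replicate 1).

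Summed over the members present in all tables, the 10 early genes held 26234 and 26243 scaled reads in arid5, 67409 and 59119 in libraries labelled chr11/17, 26434 and 26577 in those labelled rlt1/2, and 24309 and 23220.0 in WT. The 11 late genes held 4665 and 5286, 17468 and 12881, and 6210.0 and 4819 in the same order, against 4987 and 4355 in WT. The late sums of arid5 and rlt1/2 overlapped WT, and those of chr11/17 lay above every other library. The 13 regulators held 9555 and 9587, 8480.0 and 8541, and 9634 and 9420.0, against 10839 and 11178 in WT. Members together took 0.168% and 0.169% of recovered reads in arid5, 0.35% and 0.308% in chr11/17, 0.173% and 0.174% in rlt1/2, and 0.137% and 0.135% in WT.

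Differences between the mutants were tested directly, in 1 edgeR fit to the reads recovered from the 8 libraries. Libraries labelled chr11/17 stood above both other mutants for most enzymes, while edgeR told rlt1/2 and arid5 apart for none of them. Over arid5, chr11/17 had 23 of 33 members higher and 7 lower (90.9%, against 65.2% of all 21288 genes tested, 32.2% being higher and 33% lower). Without arid5 replicate 2, or without chr11/17 replicate 1, 4 members were lower. Over rlt1/2, chr11/17 had 22 higher and 6 lower (84.8%, against 64.8%, with 32.2% higher and 32.6% lower). PAP2 is 1 of the 23 and 1 of the 22. It had few reads outside the chr11/17 libraries, in which it was high, so no support is drawn from it. Its calls were lost in 4 of 8 alternatives over arid5 and in 5 of 8 over rlt1/2. Of 11 late genes, 10 were higher in chr11/17 than in arid5 and 9 were higher in chr11/17 than in rlt1/2, and none was lower.

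The difference of chr11/17 over arid5 was 4.61 (95% interval 4.28 to 4.95) for PAP1, 2.75 (2.27 to 3.22) for GSTF12, 2.44 (1.94 to 2.94) for DFR and 2.12 (1.65 to 2.58) for TT8, with edgeR adjusted p = 4.52e-09, 1.38e-06, 4.81e-06 and 7.88e-06. Over rlt1/2 the same genes differed by 3.73 (3.43 to 4.03), 2.37 (1.92 to 2.83), 2.15 (1.66 to 2.64) and 1.52 (1.09 to 1.95). MYBL2 was lower in chr11/17 than in arid5 by -2.15 (-2.42 to -1.87) and than in rlt1/2 by -1.88 (-2.15 to -1.60). SCPL10, CHIL and UGT78D2, which did not change in chr11/17 over WT at the threshold used, were each higher there than in the other mutants: SCPL10 by 1.28 (0.97 to 1.59) over arid5 and 1.45 (1.14 to 1.76) over rlt1/2, CHIL by 0.99 (0.71 to 1.26) and 1.01 (0.74 to 1.28), and UGT78D2 by 0.79 (0.56 to 1.01) and 0.65 (0.42 to 0.87). MYB111 and MYB12 differed in opposite directions. MYB111 was lower in chr11/17 than in arid5 (-0.84, adjusted p = 0.00999) and rlt1/2 (-0.91, adjusted p = 0.00584), while MYB12 was higher (0.85, adjusted p = 0.00697, and 1.20, adjusted p = 0.000904). The MYB111 calls were lost without arid5 replicate 2 (-0.65, adjusted p = 0.0939) and without chr11/17 replicate 1 (-0.62, adjusted p = 0.08, over arid5 and -0.69, adjusted p = 0.0526, over rlt1/2), and the MYB12 call over arid5 without arid5 replicate 1 (0.75, adjusted p = 0.0511) or chr11/17 replicate 2 (0.59, adjusted p = 0.0695). LBD39 was lower in chr11/17 than in arid5 (-0.46, adjusted p = 0.000866) and rlt1/2 (-0.50, adjusted p = 0.000497). 5MAT was higher in chr11/17 than in arid5 (0.76, 0.36 to 1.17), and its difference from rlt1/2 was 0.37 (-0.02 to 0.75, adjusted p = 0.0849; 0.57 and 0.0184 without chr11/17 replicate 2).

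Between rlt1/2 and arid5, edgeR called 0 of 33 members, against 0.366% of all genes called (0.324% higher and 0.0423% lower). At an unadjusted p under 0.05 there were 4 such members of 33, against 1689 of all 21288 genes. PAP1 was 0.89 higher in rlt1/2 (0.49 to 1.28, adjusted p = 0.0918), with 108 and 111 scaled reads in rlt1/2 against 63.4 and 55.4 in arid5. DESeq2 called PAP1 alone (adjusted p = 0.00855), and without arid5 replicate 2 its edgeR adjusted p was 0.652. For TT8 the difference was 0.60 ± 0.23 (standard error), and with 95% intervals it was 0.37 for LDOX (0.01 to 0.72) and -0.27 for MYBL2 (-0.51 to -0.03). For DFR the interval was -0.21 to 0.79.

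**Figure D3:**
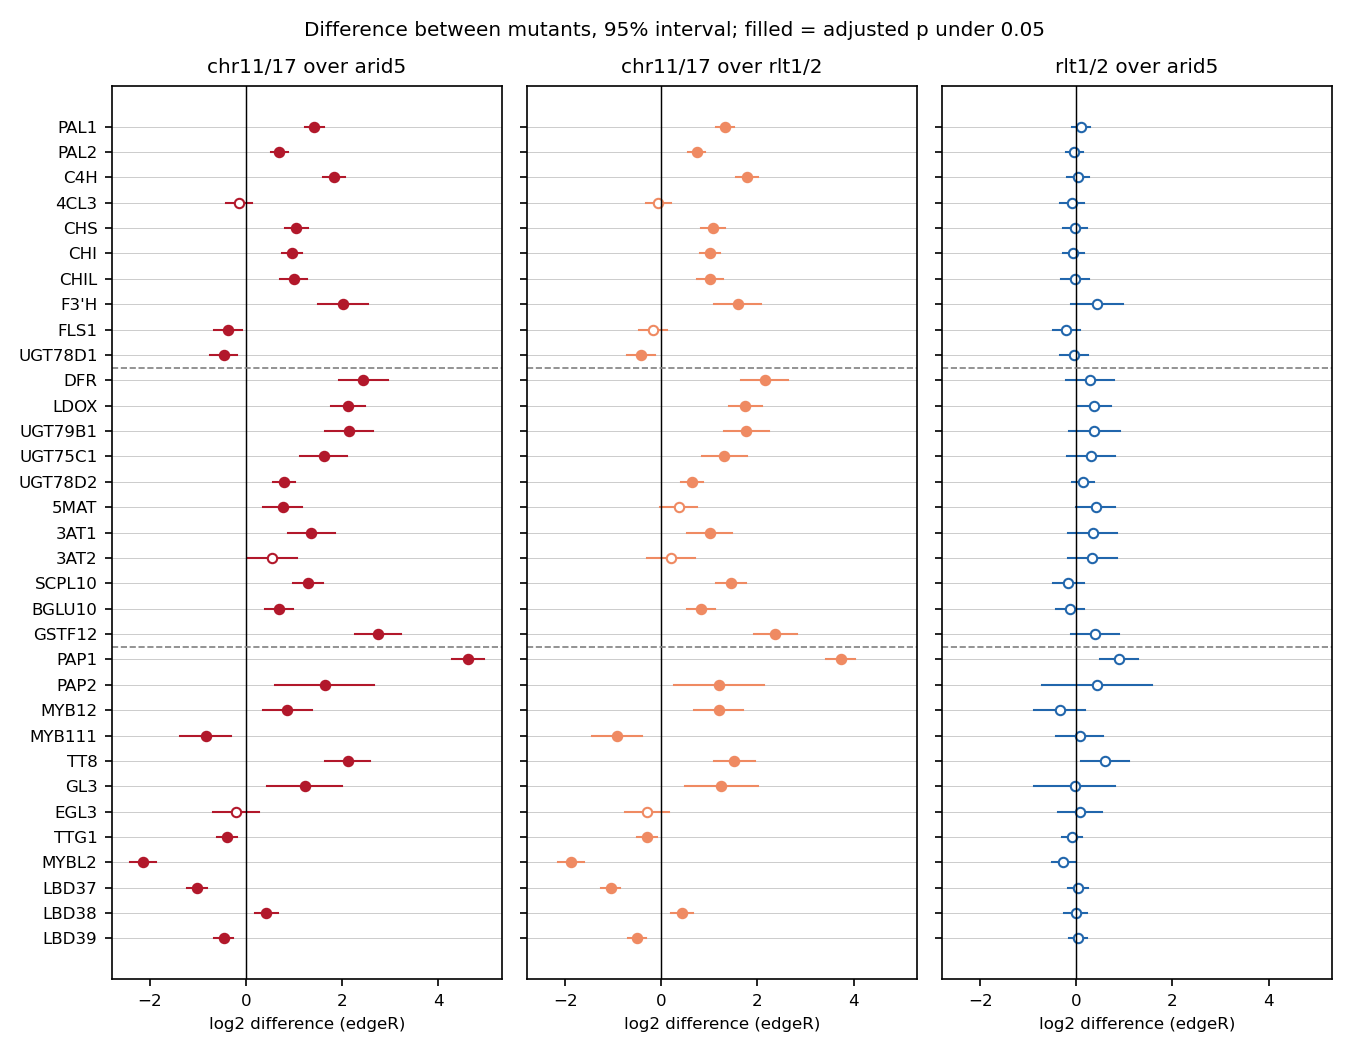
Log2 difference between mutants from edgeR (x axis, the same range in each panel) with its 95% interval, for each member tested, in chr11/17 over arid5, chr11/17 over rlt1/2 and rlt1/2 over arid5, n = 2 libraries per group. Filled points have an adjusted p under 0.05; most enzymes lie right of 0 and MYBL2 left of it in the panels with chr11/17, and the 33 open points of rlt1/2 over arid5 lie near 0 with PAP1 farthest to the right at 0.89.

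Between the 2 libraries of a group, most late genes differed in 1 direction. Each group gives only 1 such contrast, and no share of all genes was set beside it. In libraries labelled chr11/17 all 11 late genes were higher in replicate 1 than in replicate 2, by a median log2 ratio of 0.46 and at most 0.75, and in those labelled rlt1/2 all 11 were, by a median of 0.37. In WT it was 9 of 11, with a median of 0.23 and 0.73 for DFR, and in arid5 it was 1 of 11, with a median of -0.22. The early genes differed less, with medians of -0.08, 0.16, 0.10 and 0.06 in arid5, chr11/17, rlt1/2 and WT, although F3'H reached 0.86 in chr11/17. The regulators had medians of 0.08, -0.19, 0.00 and 0.01 in the same order. Of them, 7 of 11, 4 of 11, 5 of 11 and 5 of 10 were higher in replicate 1. The summed seed markers had 299 and 86 scaled reads in the chr11/17 libraries, nearly all from CRA1 (294.6 and 77.8). SESA4 went the other way there, at 4.2 and 8.3. In rlt1/2 the sum was 37 and 42. Of the seed markers outside the sum, CRC (108 and 29 reads) and OLEO1 (24 and 4) went the way of CRA1 in chr11/17. SESA1 was nearly level there (87 and 84), and SESA2 had 2 and 4. Any link of these markers to the spread of the late genes was not tested.

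**Figure D4:**
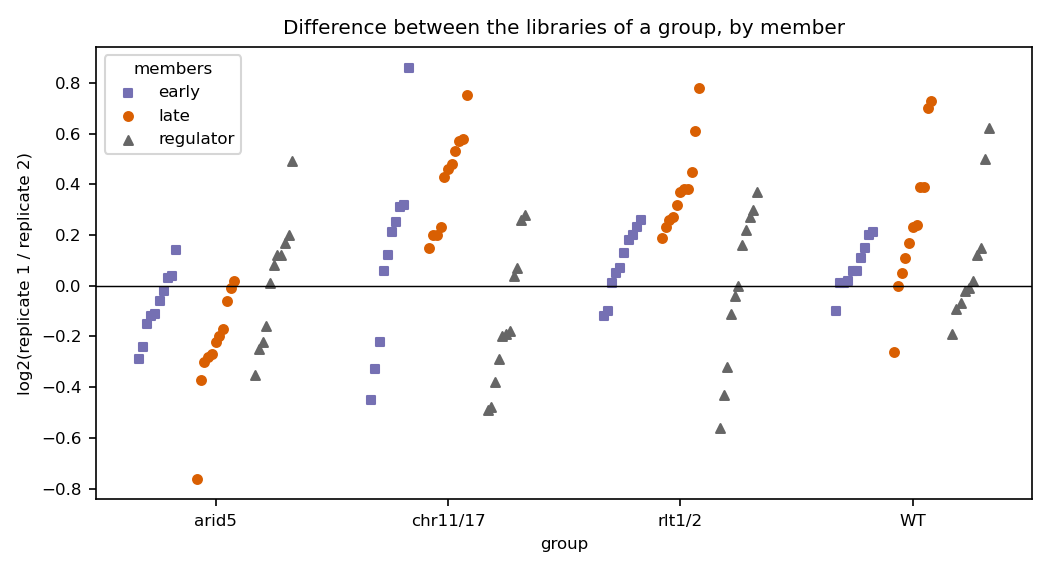
Log2 ratio of scaled reads in replicate 1 over replicate 2 (y axis) for each member in arid5, in libraries labelled chr11/17, in those labelled rlt1/2 and in WT (x axis). Squares are early genes, circles late genes and triangles regulators, sorted within each set; the late genes lie above 0 throughout in chr11/17 and rlt1/2 and mostly below it in arid5.

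Other genes around the pathway were read from listed groups. Of 7 further flavonoid and phenylpropanoid genes tested, 3 rose and 2 fell in arid5, 4 rose and 2 fell in chr11/17, and 3 rose and 2 fell in rlt1/2. That is 71.4%, 85.7% and 71.4% called, against 47.9%, 71.8% and 47.9% of all genes. The ligase gene 4CL2 rose by 0.64 ± 0.11, 1.94 ± 0.08 and 0.85 ± 0.08, DTX35, a flavonoid transporter gene of flowers, by 0.19 ± 0.05, 1.34 ± 0.08 and 0.30 ± 0.07, and OMT1, an O-methyltransferase of flavonols and lignin precursors, by 0.26 ± 0.06, 1.12 ± 0.08 and 0.23 ± 0.08. PAL3 fell in all 3, with log2 changes of -0.26 ± 0.09, -1.40 ± 0.10 and -0.51 ± 0.10, against the direction of PAL1 and PAL2 in chr11/17.

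In the lignin and sinapate branch, which draws on the same coumaroyl-CoA, 1 of 9 genes rose and 3 fell in arid5, 6 of 10 rose and 3 fell in chr11/17, and 2 of 9 rose and 3 fell in rlt1/2. The shares called were 44.4%, 90% and 55.6%, against 47.9%, 71.8% and 47.9% of all genes, so that in arid5 was near the background. CAD5, a cinnamyl alcohol dehydrogenase of lignin synthesis, had 3271 and 2907 scaled reads in arid5, 22753 and 18608 in chr11/17, 3461 and 4201 in rlt1/2, and 1680.2 and 1517 in WT. It rose by 0.94 ± 0.07, 3.66 ± 0.11 and 1.26 ± 0.09 (adjusted p = 1.19e-06, 1.03e-06 and 9.13e-07). SNG1, which makes sinapoylmalate, fell in all 3, with log2 changes of -0.92 ± 0.06, -2.80 ± 0.11 and -1.23 ± 0.09 (adjusted p = 3.3e-07, 2e-06 and 8.83e-07). CCoAOMT1 rose by 1.47 ± 0.10 in chr11/17 and 0.24 ± 0.09 in rlt1/2. SNG2, which makes sinapoylcholine in seeds, was tested in chr11/17 alone, where it had 26.2 and 14.5 scaled reads against 1.1 and 0 in WT. It passed the filter on low values only through the group in which it was high, so its place among the 6 is no support for a change of the list.

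Of 12 light and repressor inputs tested, 2 rose and 5 fell in arid5, 5 rose and 5 fell in chr11/17, and 2 rose and 6 fell in rlt1/2. The shares called were 58.3%, 83.3% and 66.7%, against the same background of 47.9%, 71.8% and 47.9%. Several encode F-box proteins that mark the early enzymes for breakdown. KFBCHS, which acts on chalcone synthase, had 2923 and 3169 scaled reads in arid5, 1546 and 1470 in chr11/17, 2127 and 1825 in rlt1/2, and 4891 and 5148 in WT, and fell in all 3, with log2 changes of -0.72 ± 0.06, -1.75 ± 0.07 and -1.34 ± 0.08 (adjusted p = 2.29e-06, 2.33e-06 and 2.37e-07). KFBCHS was the 1 gene of these 12 that edgeR told apart between rlt1/2 and arid5 (-0.63 ± 0.09, adjusted p = 0.0156). KFB20, which acts on phenylalanine ammonia-lyase, fell by 3.48 ± 0.09 in chr11/17 (adjusted p = 7.79e-07) and by 0.38 ± 0.08 in rlt1/2, and was not called in arid5 (-0.03 ± 0.07). Its relative KFB1 went the other way and rose by 0.65 ± 0.10, 2.00 ± 0.08 and 0.86 ± 0.09. TRY, an R3 MYB that inhibits trichome formation, had 30.2 and 20.1 scaled reads in arid5, 11.5 and 20.7 in chr11/17, 18.7 and 26.7 in rlt1/2, and 111 and 78 in WT, and fell in all 3, with log2 changes of -1.55 ± 0.23, -1.99 ± 0.26 and -1.68 ± 0.24. The summed trichome markers given above were lower in every mutant library too. Of 7 seed coat proanthocyanidin genes 2 were tested: TTG2 rose in chr11/17 (0.67 ± 0.19, adjusted p = 0.0153), and AHA10 rose in arid5 (0.46 ± 0.18, adjusted p = 0.0489).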

How the data were processed

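Total RNA from whole seedlings was sequenced as mRNA in 8 libraries, 2 per group, per the labels' protocols. The submitters' processing notes name HISAT2, edgeR and the TAIR10 build. Tool versions, the read counter and the strand setting were not given in the sources used here. The authors deposited 1 table per mutant with its WT libraries, holding a normalized signal: read numbers that edgeR adjusted to a common library size within the table. Inverting that adjustment gave whole reads for 100% of values (relative tolerance 1e-09), and the WT reads were the same in all 3 tables (0 differed). There were 0 columns without a sample.

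Each mutant was tested against WT within its own table, on log2(value + 10) with limma (3.58.1, in R 4.3.3). Its empirical Bayes step drew the spread of each gene toward that of genes of similar level. The limma standard errors and p-values thus rest on all genes as well as on the gene's own libraries. The added 10 pulls the log2 changes of genes with few reads toward 0. The edgeR differences were not computed on that scale. Genes entered if they reached a value of 10 in 2 or more libraries, with Benjamini-Hochberg adjustment over all genes and a threshold of 0.05. Levels set across tables are recovered reads scaled by TMM factors over all 8 libraries. Mutants were compared with edgeR (4.0.16) quasi-likelihood on the recovered reads of all libraries. Alternatives were a pseudocount of 1, no filter, equal library totals, edgeR or DESeq2 (1.42.0) on recovered reads, a replicate block and leaving out each library. The steps were tested on simulated data. Sequence was read from RefSeq's TAIR10.1, whose gene identifiers match the tables' locus identifiers.

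The members and lists were chosen with earlier results of these data known. Per-library values are given for members called in at least 1 mutant with an absolute log2 change of at least 1 there and for regulators passing the filter; of each further list, up to 4 genes with the largest change among those called are named.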

Additional observations from a re-analysis of the deposited data

How the results depend on the processing

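With equal library totals, 3 members were lower in rlt1/2 than in WT, against 7 with the deposited scaling. Of all genes 2695 were lower there, against 4982 with the deposited scaling. Among values called under either scaling 3 changed sign: FLS1 in arid5 (0.22) and rlt1/2 (0.03), and PAL2 in rlt1/2 (0.26). Other small negative values, called under neither, also turned positive, and that scaling shifted the median of all genes to 0.253, 0.147 and 0.269 in arid5, chr11/17 and rlt1/2. Leaving out 1 library at a time gave 4 to 7 members lower in chr11/17 than in arid5, against 7 with all libraries. DESeq2 called 1 member, PAP1, higher in rlt1/2 than in arid5, where edgeR called 0. Of the members called against WT, 14 of 21 in arid5, 24 of 27 in chr11/17 and 16 of 24 in rlt1/2 were called under every alternative run; between mutants it was 24 of 30 for chr11/17 over arid5 and 23 of 28 for chr11/17 over rlt1/2. Replicate numbers were not shown to pair the samples: the correlation of same-numbered deviations was -0.00254, 0.0139 and 0.156 in the arid5, chr11/17 and rlt1/2 tables, with 2 pairs in each. The replicate block gave 15 members higher and 6 lower in arid5, 22 and 6 in chr11/17 (SCPL10 being added, 0.25, adjusted p = 0.0187), and 17 and 7 in rlt1/2; over arid5, chr11/17 had 23 higher and 7 lower, over rlt1/2 it had 22 and 6, and rlt1/2 over arid5 had 0 and 0. With 2 libraries per group, leaving 1 out assumes that the lone library varies like the other group. Depth limits MYB11, MYB113, MYB114 and BAN, which were not tested, and PAP2, whose fitted change depends on the pseudocount (1.20 with 10, 2.67 with 1).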
